A study of Mus musculus with 55 samples.

Results

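Gene expression in the cerebellum was compared between mouse pups labelled Pon1-/- (KO) and wild-type pups (Pon1+/+, WT) that had all received chlorpyrifos oxon (CPO) at 0.5 mg/kg/day. The comparison uses 6 of the 55 arrays of the study, taken by their titles: 3 arrays labelled KO at 0.5 and 3 labelled WT at 0.5. All the pups were of the C57Bl/6 strain. CPO in dimethyl sulfoxide (DMSO), or DMSO alone as the vehicle, was injected under the skin once a day from postnatal day 4 to day 21, and tissue was taken on day 22. The same genotypes were also measured at 0.35 mg/kg/day (5 KO and 6 WT arrays) and in vehicle (4 KO and 6 WT arrays), and those arrays serve here to show which differences between the genotypes were also present at the lower dose or without CPO. The submitters' design text gives these group sizes as what was left after quality problems. The arrays of 2 further genotypes, labelled Q192 and R192, entered the fit, where they help to estimate the spread, and are not described.

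Paraoxonase 1, the product of Pon1, is an enzyme made mainly in the liver and carried in the blood on high-density lipoprotein. It hydrolyses the oxon forms of several organophosphorus insecticides, among them CPO, which is formed in the body from chlorpyrifos. CPO acts by binding to the active serine of acetylcholinesterase and of other serine hydrolases. Pon1 lies in a cluster with its relatives Pon2 and Pon3, which encode lactonases of the same family. The cerebellum goes through much of its growth in the mouse during the weeks after birth, when granule neurons are born, move inward and form synapses.

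Each array gives a level per gene on the log2 scale, on which a step of 1 stands for a doubling of the signal, and all differences below are in these log2 units. The 6 arrays had medians of 7.38 to 7.45, against 7.37 to 7.54 over all 55. Of 19938 genes with a symbol of their own, 14950 were tested, after those with a mean level below 6.44 were left out. The tissue label could be set against cerebellar markers. Gabra6, a receptor subunit of granule neurons, averaged 12.74 ± 0.302 in the arrays labelled KO at 0.5 and 12.48 ± 0.450 in the WT arrays at 0.5 (SD, n = 3 each). Pcp2, a gene of Purkinje cells, averaged 10.50 ± 0.311 in the arrays labelled KO at 0.5 and 10.04 ± 0.501 in WT. Both markers were well above the level threshold in all the groups. The 3 arrays of each group carry only 2 different numbers in their sample descriptions, because replicates 1 and 2 of either group share one. The labels do not say what the number is or that each array is a separate animal. The p-values therefore reflect a spread among arrays, estimated over all 55 in the fit, and part of it may be technical. All 6 arrays had levels between 5.67 and 5.89 of Xist, the RNA made from the inactive X chromosome, while KO vehicle replicate 4 had 11.26. Eif2s3y, a gene of the Y chromosome, measured 10.09 to 10.77 in the 6 arrays and 4.15 in KO vehicle replicate 4. By these genes that array read as female and the 6 as male. The other KO vehicle arrays measured 10.39 to 10.97 in Eif2s3y, so the KO vehicle group held both sexes.

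The targeted gene went against the genotype label. Pon1 measured 9.92, 10.13 and 9.94 in the 3 arrays labelled KO at 0.5, against 5.36, 4.79 and 5.05 in the WT arrays. The difference was +4.92 ± 0.159 (log2 units, SE), with a limma adjusted p of 4.72e-29. The WT values lay below the level threshold, so no fold is given. The same held in vehicle (+4.95) and at 0.35 (+4.83). At 0.5 and in vehicle together, the arrays labelled KO lay between 9.92 and 10.35 and the WT arrays between 4.79 and 5.55. Neither the labels nor the files used here say how the allele was made or which stretch of the transcript the probes read, and whether the probes lie outside the changed stretch was not tested. The groups are therefore called by their labels below, and every direction given is that of the arrays labelled KO relative to the arrays labelled WT.

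The promoter windows of the 3 paraoxonase genes are shown because the probe sets of these neighbouring genes behaved differently. Each runs from 250 bases before to 50 bases after the annotated start, 5′ to 3′ on the gene's own strand, from RefSeq on GRCm38.p6. Capitals mark matches to GGGCGG and to CCAAT, which is seen here only in its reverse form ATTGG.
Pon1, chr6:5193897-5194196, minus strand: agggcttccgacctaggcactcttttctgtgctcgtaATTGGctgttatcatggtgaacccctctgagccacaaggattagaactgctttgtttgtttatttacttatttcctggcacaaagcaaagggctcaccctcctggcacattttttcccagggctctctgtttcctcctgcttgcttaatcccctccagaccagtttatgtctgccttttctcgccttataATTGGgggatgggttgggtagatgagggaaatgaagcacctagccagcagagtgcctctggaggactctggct
Pon3, chr6:5256184-5256483, minus strand: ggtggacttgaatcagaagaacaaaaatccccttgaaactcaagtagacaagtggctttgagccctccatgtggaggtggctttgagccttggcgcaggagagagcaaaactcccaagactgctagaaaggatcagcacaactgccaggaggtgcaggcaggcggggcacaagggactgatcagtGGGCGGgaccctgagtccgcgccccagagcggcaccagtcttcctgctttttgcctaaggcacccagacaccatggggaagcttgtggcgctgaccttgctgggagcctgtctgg
Pon2, chr6:5298291-5298590, minus strand: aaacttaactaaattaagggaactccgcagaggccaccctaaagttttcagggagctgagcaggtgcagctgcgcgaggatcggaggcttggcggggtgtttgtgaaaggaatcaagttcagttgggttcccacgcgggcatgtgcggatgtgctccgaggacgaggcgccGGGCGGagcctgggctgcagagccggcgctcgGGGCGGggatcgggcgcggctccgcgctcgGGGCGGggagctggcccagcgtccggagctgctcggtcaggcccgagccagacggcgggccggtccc
The Pon1 window held CCAAT in 2 places and no GGGCGG, and 49.3% of its bases were G or C. The Pon3 window held GGGCGG in 1 place with 57.7% G or C, and the Pon2 window held it in 3 places with 67.7%. Searched on both strands, CCAAT was found in 37.4% and GGGCGG in 35.7% of all 32851 windows of this length. TATAAA, found in 13.6% of all windows, was in none of the 3, and none of these matches overlapped another.

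Pon2, which encodes an intracellular lactonase, was lower in the arrays labelled KO. It measured 9.57, 9.46 and 9.31 in the arrays labelled KO at 0.5, against 10.12, 10.26 and 9.92 in WT, so the groups did not overlap. The difference was -0.64 ± 0.115 (SE, limma adjusted p = 0.00198). In vehicle and at 0.35 the differences were -0.26 (adjusted p = 0.214) and -0.22 (adjusted p = 0.217), and the difference at 0.5 minus that in vehicle, -0.38, did not pass (adjusted p = 0.0748). Pon3, also a lactonase gene of the cluster, measured 6.45, 6.64 and 6.76 in the arrays labelled KO at 0.5, against 7.30, 7.25 and 7.31 in WT. The difference of -0.62 ± 0.189 in Pon3 did not pass (adjusted p = 0.0841), although its groups did not overlap.

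Over all genes, 33 passed an adjusted p of 0.05 between KO and WT at 0.5, 16 higher and 17 lower in the arrays labelled KO. They are 0.221% of the 14950 genes tested (0.107% higher and 0.114% lower). The smallest difference that passed was 0.36, and the median difference over all genes was 0.01. At an unadjusted p of 0.05, 3228 genes passed, or 21.6%. In all 33 genes the 3 arrays labelled KO lay wholly above or below the 3 WT arrays, as they did in 32.2% of all genes tested. The plot of significance against difference shows Pon1, Gdpd3 and Gm1976 apart from the rest, with many of the 33 close to the threshold.

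**Figure D1:**
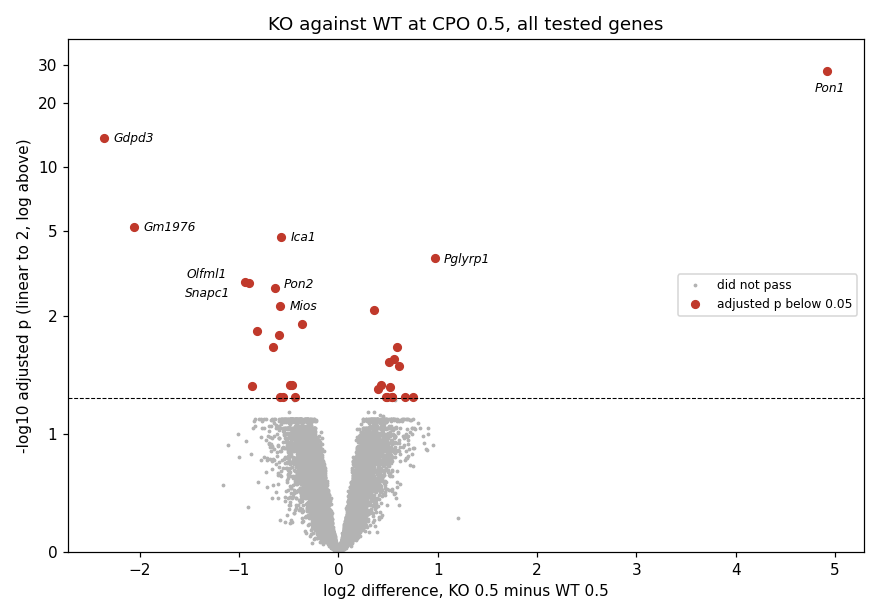
Difference in level (log2 units, KO 0.5 minus WT 0.5, x axis) and significance (-log10 of the limma adjusted p, y axis, linear up to 2 and logarithmic above) of the 14950 tested genes. Red points are the 33 genes that passed, grey points the others. Pon1 lies at +4.92, Gdpd3 at -2.36 and Gm1976 at -2.05, and the dashed line marks an adjusted p of 0.05.

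Of the 33 genes, 7 passed without each of the 6 arrays in turn, namely Pon1, Gdpd3, Gm1976, Pglyrp1, Olfml1, Snapc1 and Ica1. Gdpd3, which encodes an enzyme that cleaves lysophospholipids, showed the largest difference among the genes that were lower. It measured 6.00, 6.11 and 6.17 in the arrays labelled KO at 0.5, against 8.44, 8.28 and 8.61 in WT. The difference was -2.36 ± 0.170 (adjusted p = 1.82e-14), and since the values of the arrays labelled KO lay below the level threshold no fold is given. Gdpd3 was likewise lower in vehicle (-2.27) and at 0.35 (-2.21), with adjusted p-values of 5.11e-18 and 1.17e-18.

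Gm1976, a predicted gene without a described product, measured 7.65, 7.76 and 7.71 in the arrays labelled KO at 0.5, against 9.74, 9.96 and 9.65 in WT. The difference of -2.05 ± 0.273 passed (adjusted p = 5.81e-06), and no array lay between the groups. In vehicle Gm1976 measured 8.65, 8.59, 7.72 and 9.10 in the arrays labelled KO, against 9.28 to 9.75 in WT, a difference of -0.91 (adjusted p = 0.0526). The 4 KO vehicle arrays were thus spread out, with replicate 3 at the level of the KO arrays at 0.5. The difference at 0.5 minus that in vehicle was -1.14 ± 0.347 (adjusted p = 0.0405).

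Pglyrp1, which encodes a peptidoglycan-binding protein of innate immunity, was higher in the arrays labelled KO. It measured 8.99, 8.65 and 8.61 in the arrays labelled KO at 0.5, against 7.67, 7.82 and 7.80 in WT, a difference of +0.97 ± 0.152 (adjusted p = 0.000192). In vehicle the difference was +0.99 and at 0.35 it was +0.98, so Pglyrp1 was as far apart without CPO as with it. Ica1, whose product takes part in the traffic of secretory vesicles, measured 9.39, 9.41 and 9.21 in the arrays labelled KO at 0.5, against 9.85, 9.90 and 9.90 in WT. It had the smallest standard error of these 7 genes, with a difference of -0.58 ± 0.081 (adjusted p = 1.97e-05). It was also lower in vehicle (-0.37) and at 0.35 (-0.51).

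Olfml1, a member of the olfactomedin-like family of secreted proteins, measured 8.30, 7.93 and 8.29 in the arrays labelled KO at 0.5, against 9.04, 9.32 and 9.13 in WT. The difference was -0.94 ± 0.163 (adjusted p = 0.00137), while those in vehicle (-0.46) and at 0.35 (-0.18) did not pass. Snapc1, a subunit of the complex that starts transcription of small nuclear RNA genes, measured 8.46, 8.52 and 8.39 in the arrays labelled KO at 0.5, against 9.31, 9.30 and 9.41 in WT. Its difference of -0.90 ± 0.157 passed (adjusted p = 0.00147), as did the -0.59 at 0.35 (adjusted p = 0.00746). The -0.50 of Snapc1 in vehicle did not pass (limma adjusted p = 0.0807). For neither gene did the difference at 0.5 minus that in vehicle pass, with adjusted p-values of 0.108 for Olfml1 and 0.159 for Snapc1.

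**Figure D2:**
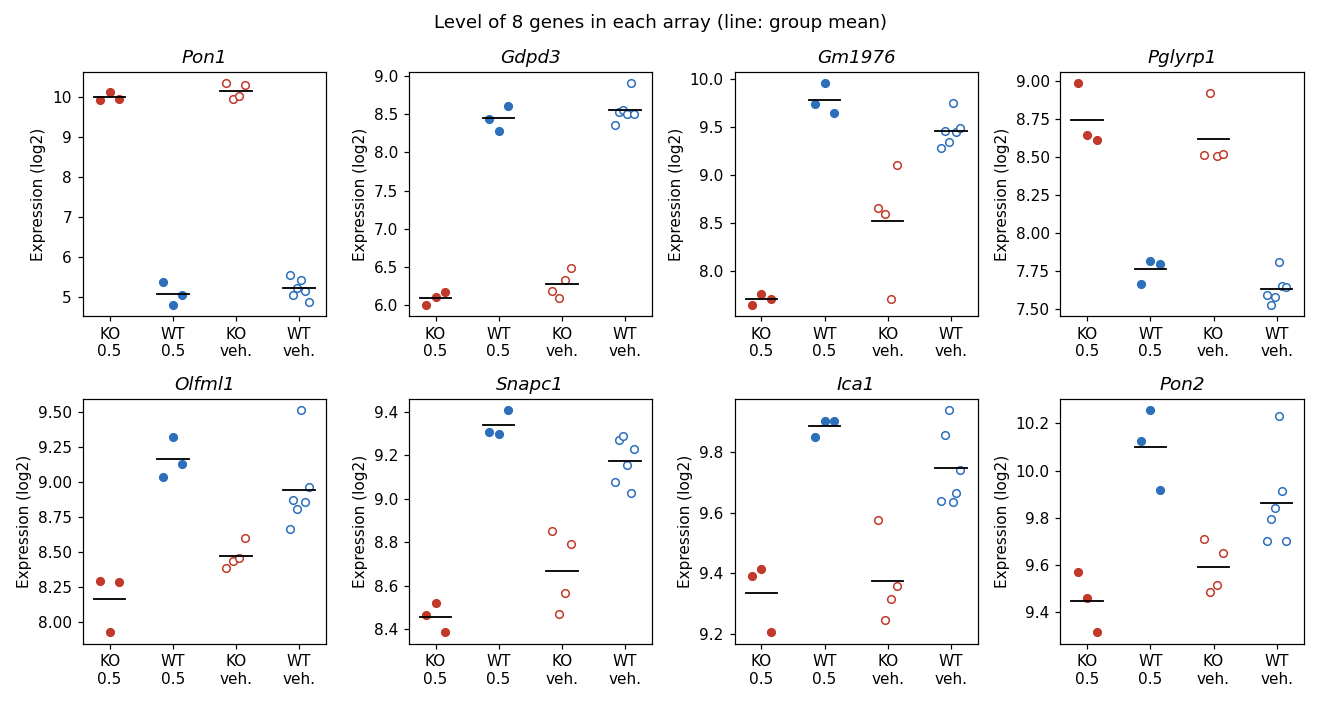
Expression level (log2, y axis) of Pon1, Gdpd3, Gm1976, Pglyrp1, Olfml1, Snapc1, Ica1 and Pon2 in each array labelled KO (red) and WT (blue), given CPO at 0.5 (filled) or vehicle (open), with the group mean as a line. In all 8 genes the 3 arrays labelled KO at 0.5 lie wholly above (Pon1, Pglyrp1) or below (the others) the 3 WT arrays at 0.5, and in Gm1976 the arrays labelled KO in vehicle lie between 7.72 and 9.10.

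The arrays of this comparison were run on 2 dates, with 2 arrays labelled KO and 1 WT array on the first and 1 labelled KO and 2 WT arrays on the second. Within a single date, where one of the groups has only 1 array that is assumed to vary like the others, 2 genes passed on either one. Since the 6 arrays do not overlap in any of the 33 genes, their direction within a date is fixed by that and only the sizes are given. Pon1 differed by +4.67 on the first date and +5.03 on the second, Gdpd3 by -2.39 and -2.27, Gm1976 by -2.04 and -2.09, and Pon2 by -0.61 and -0.77. Leaving out 1 array at a time, 17, 10 and 13 genes passed without replicate 1, 2 or 3 of the arrays labelled KO, of which 17, 10 and 10 were among the 33. Without replicate 1, 2 or 3 of WT, 10, 9 and 24 genes passed, of which 10, 9 and 19 were among the 33. With the 6 arrays alone in the fit, 3 genes passed. An array outside the comparison also set the count, since 203 genes passed without KO 0.35 replicate 5. Its description number is also carried by arrays labelled R192 at 0.35. Gm1976 measured 9.58 in this array, against 7.63 to 8.88 in the other KO arrays and 9.19 to 9.67 in WT at 0.35. Snapc1 measured 9.46, against 8.27 to 8.62 and 9.11 to 9.47. Pon1 (10.39) and Gdpd3 (6.48) stayed near the other arrays labelled KO. Why this array differed was not tested.

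The 33 genes were unevenly spread over the chromosomes, in counts that were not tested. Chromosome 7 held 9 of the 33, or 0.754% of its 1193 tested genes, chromosome 6 held 5 (0.677% of 739) and chromosome 12 held 3 (0.544% of 551) and chromosome 15 held 3 (0.498% of 602), against 0.221% over all chromosomes. In vehicle, where no array is shared with the comparison at 0.5, chromosome 7 held 9 (0.754%), chromosome 6 held 4 (0.541%), chromosome 12 held 3 (0.544%), chromosome 4 held 4 (0.428%) and chromosome 15 held 0 of the 22 genes that passed, against 0.147% over all. The 3 genes of chromosome 12 at 0.5 were Snapc1, Plekhd1 and Slc38a6, and all 3 were lower in the arrays labelled KO. Plekhd1 measured 6.58, 6.91 and 6.63 in the arrays labelled KO at 0.5, against 7.85, 7.06 and 7.57 in WT, and differed by -0.87 ± 0.198 (adjusted p = 0.0393). Slc38a6, of an amino acid transporter family, measured 7.98, 7.88 and 7.95 in the arrays labelled KO at 0.5, against 8.80, 8.84 and 8.69 in WT, and differed by -0.82 ± 0.168 (adjusted p = 0.0135). In vehicle Slc38a6 differed by -0.55 (limma adjusted p = 0.0585), and the difference at 0.5 minus that in vehicle did not pass (adjusted p = 0.377).

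The genes beside Pon1 were counted as well. Within 20 places on either side in the order of all annotated genes, 12 other genes were tested and 1 of them, Pon2, passed, with 8 lower and 4 higher in the arrays labelled KO and a median of -0.13. Over all genes 0.221% passed, 0.114% lower, and 53% were higher. Counting 20 places of protein-coding genes, an order chosen after values had been seen, gave 29 tested genes, of which 4 were lower and passed and 0 were higher and passed. These 4 were Pon2, C1galt1, Mios and Ica1, and the median of the 29 was -0.21. C1galt1, which adds the galactose of core O-glycans, measured 8.18, 7.86 and 8.30 in the arrays labelled KO at 0.5, against 8.73, 9.01 and 8.70 in WT (difference -0.66 ± 0.139, adjusted p = 0.0185). Mios, part of a complex that relays amino acid supply to the mTORC1 kinase, measured 8.62, 8.70 and 8.48 in the arrays labelled KO at 0.5, against 9.21, 9.28 and 9.04 in WT (difference -0.59 ± 0.112, adjusted p = 0.00595). In vehicle, Mios differed by -0.22 and C1galt1 by -0.04, and neither passed. Glcci1, another of the 29, differed by +0.11 at 0.5 (adjusted p = 0.624) but by +0.52 in vehicle (adjusted p = 0.00183).

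Of the 33 genes, 7 also passed between KO and WT in vehicle, where 22 genes did so (0.147% of those tested, 0.0803% higher and 0.0669% lower). They are 21.2% of the 33 and 31.8% of the 22. At 0.35, where 34 genes passed (0.227%, with 0.12% higher and 0.107% lower), 11 of the 33 did so, which is 33.3% of the 33 and 32.4% of the 34. The 7 genes shared with vehicle all passed at 0.35 too: Pon1, Gdpd3, Pglyrp1, Ica1, Plekhd1, Zfp109 and Cplane2. Zfp109, a zinc finger gene, measured 7.99, 8.35 and 7.96 in the arrays labelled KO at 0.5, against 7.53, 7.61 and 7.64 in WT, and was higher by +0.51 at 0.5, +0.52 in vehicle and +0.40 at 0.35. Cplane2, a small GTPase gene involved in building cilia, measured 6.88, 7.08 and 7.10 in the arrays labelled KO at 0.5, against 7.83, 7.52 and 7.46 in WT, and differed by -0.58 at 0.5, -0.59 in vehicle and -0.54 at 0.35. Gm1976, Kdm8, Mios and Snapc1 passed at 0.5 and at 0.35 and not in vehicle. Kdm8, of the JmjC domain family and the smallest of the 16 higher genes, is named for this overlap after its values were seen, and differed by +0.36 at 0.5 (adjusted p = 0.0077), +0.10 in vehicle and +0.25 at 0.35.

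The other 22 genes passed at 0.5 and in neither of the other comparisons. A gene that missed the threshold elsewhere may still have differed there. Of the 33 genes, 19 also passed in the difference at 0.5 minus that in vehicle and 14 did not, set against 9.2% of all genes that passed it. That difference contains the same arrays at 0.5 by which the 33 were selected. Passing it is favoured by this selection and is no separate support, here and for the genes below. At 0.35, where the numbers of the titles met the limit for pairs, a fit with the replicate block raised the count to 88, and the same 11 of the 33 passed there and 0 of the 22. Of the 22, 12 were higher and 10 lower in the arrays labelled KO. Unc13a, which prepares synaptic vesicles for release, measured 9.68, 9.89 and 9.60 in the arrays labelled KO at 0.5, against 9.19, 8.90 and 9.18 in WT. It differed by +0.59 ± 0.124 (adjusted p = 0.0185) at 0.5 and by 0.00 in vehicle, and the difference between these 2 passed (adjusted p = 0.037). Unc13a has 2 further probe sets, which differed by +0.43 and +0.02 at 0.5, so the size of its difference depended on the probe set. Calr, a calcium-binding chaperone of the endoplasmic reticulum, measured 11.40, 11.51 and 11.22 in the arrays labelled KO at 0.5, against 10.71, 10.42 and 10.67 in WT, and differed by +0.75 ± 0.175 (adjusted p = 0.0493). In vehicle Calr measured 11.25, 11.41, 11.23 and 10.74 in the arrays labelled KO, against 11.14 to 11.38 in WT, a difference of -0.10. The WT arrays at 0.5 were thus the low ones, below all the vehicle arrays of either label.

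In Sez6l and Lman2l, too, the WT arrays at 0.5 lay below all the WT vehicle arrays. Sez6l, a membrane protein gene of neurons, measured 9.11, 9.04 and 9.22 in the arrays labelled KO at 0.5, against 8.59, 8.28 and 8.45 in WT. Its WT vehicle arrays lay between 8.77 and 9.43. Its KO vehicle arrays measured 8.37, 9.10, 9.02 and 8.52, so replicates 1 and 4 of them lay within the range of WT at 0.5. Lman2l, a lectin that sorts glycoproteins in the early secretory pathway, measured 9.71, 9.79 and 9.67 in the arrays labelled KO at 0.5, against 9.06, 8.86 and 9.34 in WT, and its WT vehicle arrays lay between 9.47 and 9.93. Scn2b, an auxiliary subunit of sodium channels, measured 11.22, 11.40 and 11.28 in the arrays labelled KO at 0.5, against 10.84, 10.58 and 10.97 in WT. The differences at 0.5 were +0.67 for Sez6l, +0.61 for Lman2l and +0.48 for Scn2b, and those in vehicle were -0.31, -0.12 and +0.02. Nmnat2, which makes NAD in axons, differed by +0.54 at 0.5. Ap2b1, a subunit of the clathrin adaptor at the plasma membrane, differed by +0.52, and Slc2a13, a transporter of myo-inositol, by +0.56. Sgpp2, a phosphatase of sphingosine 1-phosphate, differed by +0.54, and Sprn, a gene related to that of the prion protein, by +0.43. Smg9, which acts in nonsense-mediated decay of mRNA, differed by +0.49, and Paf1, of the elongation complex of RNA polymerase II, by +0.40. The adjusted p-values of these 10 genes from limma lay between 0.0234 (Slc2a13) and 0.0493. Each of them also passed the test of the difference at 0.5 minus that in vehicle, which shares the arrays at 0.5 that selected them. No gene passed that test with KO and WT arrays alone in the fit.

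Sytl2 was among the genes lower in the arrays labelled KO that passed at 0.5 and in neither other comparison. Its product binds Rab27 on vesicles bound for secretion. Sytl2 measured 9.22, 8.89 and 9.21 in the arrays labelled KO at 0.5, against 9.71, 9.94 and 9.60 in WT. It differed by -0.60 ± 0.124 at 0.5 (adjusted p = 0.0146) and by +0.07 in vehicle, and the difference between these passed (adjusted p = 0.037). Ndufa6, a subunit of respiratory complex I, measured 10.30, 10.17 and 10.14 in the arrays labelled KO at 0.5, against 10.64, 10.70 and 10.63 in WT, and differed by -0.43 ± 0.103 (adjusted p = 0.0493). Pros1, the gene of the anticoagulant protein S, which is also a ligand of TAM receptors, measured 7.47, 7.35 and 7.61 in the arrays labelled KO at 0.5, against 7.98, 8.02 and 8.0 in WT (difference -0.49, adjusted p = 0.039). For Pros1 the difference at 0.5 minus that in vehicle did not pass (limma adjusted p = 0.0687). Nup43, of the nuclear pore, differed by -0.56, and Ttc33 by -0.47. Zfp655, a zinc finger gene with the smallest difference of the 17 lower genes, completes the 22 and is named after its values were seen, with -0.36 (adjusted p = 0.0117). Of the 33 genes, 10 passed in none of the 6 fits that each left out 1 array: Calr, Sez6l, Nmnat2, Ap2b1, Paf1, Cplane2, Nup43, Pros1, Ttc33 and Ndufa6.

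Whether the genotypes differed at 0.5 otherwise than in vehicle was tested gene by gene as the difference of the differences. This question has 1375 genes that passed, 841 with a higher and 534 with a lower value at 0.5 (9.2% of the genes tested, 5.63% and 3.57%), with adjusted p-values of no less than 0.037. With the arrays centred on their medians the split turned, from 61.2% to 40% of the genes that passed having a higher value, so the balance of the directions depended on the scaling. Of these genes, 838 were higher in the arrays labelled KO at 0.5 and lower in those in vehicle, and 532 the other way round. Selection on the difference itself favours opposite signs, so these numbers describe the set. Few of the 1375 passed in either comparison of the genotypes, since 1353 passed in neither. This count rested on single arrays: no gene passed without KO 0.5 replicate 1 or 3, WT 0.5 replicate 2 or 3, KO vehicle replicate 1 or 4, or WT vehicle replicate 1 or 5, each left out alone. At an unadjusted p of 0.05, 4733 genes (31.7%) passed with all the arrays. With the 0.35 arrays in place of vehicle, an alternative chosen after seeing the data, 18 genes passed, 8 of them among the 1375. Within a single array date no gene passed, with 1163 at an unadjusted p of 0.05 on the first date and 3504 on the second.

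**Figure D3:**
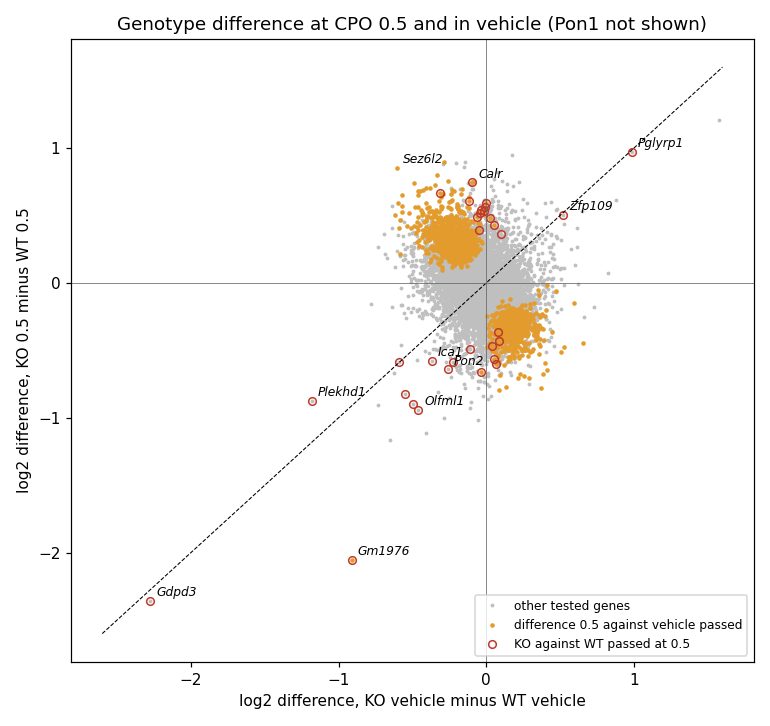
Difference between the genotypes (log2 units, KO minus WT) at CPO 0.5 (y axis) and in vehicle (x axis) for the tested genes other than Pon1. Ringed points are genes that passed at 0.5, orange points genes whose difference at 0.5 differed from that in vehicle, grey points the others, and the dashed line marks equal differences. Gdpd3, Pglyrp1 and Zfp109 lie close to that line, and Gm1976 lies at -2.05 against -0.91.

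The genes with the largest positive difference of differences were led by Sez6l2. This gene, which encodes a membrane protein of neurons, measured 10.28, 10.11 and 10.45 in the arrays labelled KO at 0.5, against 9.66, 9.02 and 9.54 in WT at 0.5. In vehicle Sez6l2 measured 8.90, 10.44, 9.98 and 9.43 in the arrays labelled KO, against 10.02 to 10.66 in WT. The difference was +0.85 at 0.5 (adjusted p = 0.105) and -0.60 in vehicle (adjusted p = 0.214), so neither passed, while the +1.46 ± 0.374 between them did (adjusted p = 0.037). The vehicle arrays labelled KO were spread over more than a unit, with replicate 1 lowest. Syn1, the gene of the synaptic vesicle protein synapsin I, had the same pattern, at 9.39, 9.38 and 9.78 in the arrays labelled KO at 0.5, against 9.06, 8.73 and 8.80 in WT at 0.5. In vehicle Syn1 measured 8.27, 9.60, 9.47 and 8.85 in the arrays labelled KO, against 9.32 to 9.82 in WT, and its difference of differences was +1.23.

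The rest of the 10 at the top were Clstn3 (+1.23), a calsyntenin of synaptic membranes, Ncdn (+1.19), Jup (+1.18), a cell junction protein, Pnmal2 (+1.14), Slc12a5 (+1.14), the potassium-chloride exporter of neurons, Dner (+1.13), a Notch ligand of Purkinje cells, Clip3 (+1.13) and Fasn (+1.12), the fatty acid synthase. None of the 10 passed in the comparison at 0.5 alone, and in each of them KO vehicle replicates 1 and 4 were the lowest 2 of the 4 arrays labelled KO in vehicle. The 10 genes at the other end were Zfp442 (-1.15), Gm1976 (-1.14), Mir384 (-1.10), Mir99ahg (-1.06), Zfp874b (-1.06), Snord61 (-1.02), Gm4787 (-1.0), Mir325 (-1.0), DQ267101 (-0.99) and Etnppl (-0.94), an enzyme gene of phosphoethanolamine breakdown. Apart from Gm1976 none of these passed at 0.5 alone. The 4 probe sets of Mir99ahg, a long noncoding RNA gene that hosts microRNAs, ran the same way, between -1.06 and -0.54.

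Mir384 and Mir325 are 2 microRNA genes close together on the X chromosome, and their mature sequences, from RefSeq on GRCm38.p6, are given with the seed (bases 2 to 8) in capitals because both genes stood at this end of the ranking.
mmu-miR-384-5p: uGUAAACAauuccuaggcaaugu
mmu-miR-384-3p: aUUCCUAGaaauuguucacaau
mmu-miR-325-5p: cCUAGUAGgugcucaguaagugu
mmu-miR-325-3p: uUUAUUGAgcaccuccuaucaa
No seed was shared among these 4 mature forms. Mir384 measured 8.40, 9.14 and 8.79 in the arrays labelled KO at 0.5, against 9.02, 9.35 and 9.30 in WT, so the groups overlapped. Mir325 measured 8.28, 8.53 and 8.63 in the arrays labelled KO at 0.5, against 9.08, 9.36 and 8.88 in WT, without overlap. The array was made for long transcripts, and whether these probe sets read the mature form or its precursor was not tested.

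A principal component analysis of all tested genes over the 55 arrays placed the groups on a first axis that carried 27.5% of the variance. A second axis carried nearly as much, 25.8%, and is not described. The arrays labelled KO scored 2.70 to 16.6 at 0.5, against -14.2 to -1.69 for WT at 0.5. In vehicle the arrays labelled KO scored -28.9 to 11.8 and the WT arrays 0.884 to 16.1. The means were thus in opposite order at 0.5 (10.7 for the arrays labelled KO, -8.21 for WT) and in vehicle (-5.77 for the arrays labelled KO, 9.86 for WT). With the score on the first axis as a covariate, added after seeing the data, 17 genes passed at 0.5 and 0 in the difference from vehicle, with 620 at an unadjusted p of 0.05. The axis comes from the same genes and separated the compared groups at 0.5. The covariate thus takes up part of the difference under test, and nothing is concluded from these counts. What this axis stands for was not tested.

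**Figure D4:**
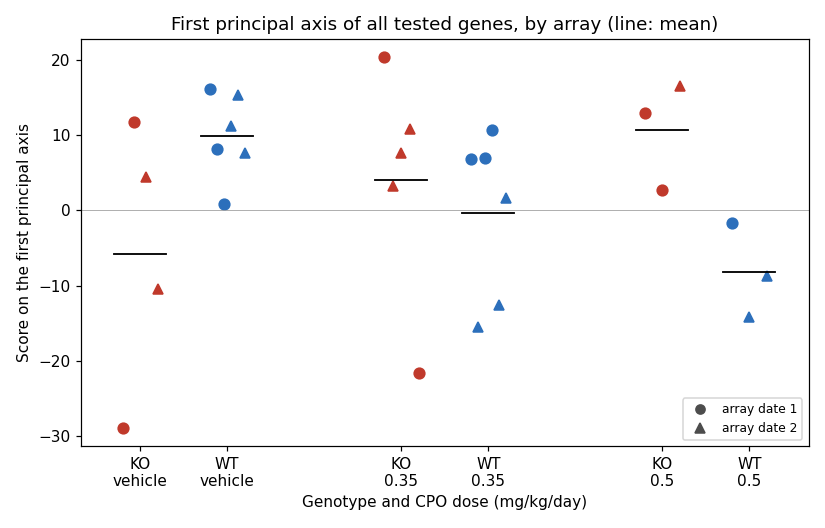
Score of each array labelled KO (red) and WT (blue) on the first principal axis of all tested genes (y axis), by CPO dose in mg/kg/day from vehicle to 0.5 (x axis), with circles and triangles for the 2 array dates and a line at the group mean. At 0.5 the arrays labelled KO lie between 2.70 and 16.6, all above the WT arrays, and in vehicle their range of -28.9 to 11.8 overlaps that of WT.

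Cell type markers were counted next, over lists whose tested members are given each time. In bulk tissue fewer cells of a type and less RNA per cell cannot be told apart. All 20 granule neuron markers were higher in the arrays labelled KO at 0.5, with a median of +0.48 against 0.01 over all genes, and 0 of them passed. Their mean level was 10.69, 11.01 and 10.76 in the arrays labelled KO at 0.5, against 10.51, 9.69 and 10.55 in WT, so WT replicate 2 stood apart below the others. Fat2, a giant cadherin of granule neurons, differed by +0.95 ± 0.352 (adjusted p = 0.125), and Tiam1, an activator of the GTPase Rac, by +0.82 ± 0.254 (adjusted p = 0.0898). The median of the list was +0.14 in vehicle and -0.27 at 0.35, so it had the opposite sign at the lower dose.

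Of 18 Purkinje cell markers, 15 were higher and 3 lower in the arrays labelled KO at 0.5, with a median of +0.28 and 0 that passed. The median was +0.08 in vehicle and -0.20 at 0.35. Dner differed by +0.80 ± 0.241 (adjusted p = 0.081), and Slc1a6, a glutamate transporter of Purkinje cells, by +0.69 ± 0.291 (adjusted p = 0.162). Of 13 markers of molecular layer interneurons and Golgi cells, 10 were higher and 3 lower, with a median of +0.29. Among them Gad1, which makes the transmitter GABA, differed by +0.66 ± 0.176 (adjusted p = 0.0748), and Kit, a receptor tyrosine kinase of these interneurons, by +0.69 ± 0.222 (adjusted p = 0.091). All 18 microglia markers were lower in the arrays labelled KO at 0.5, with a median of -0.35, and 0 passed. Their mean level was 7.76, 7.57 and 7.96 in the arrays labelled KO at 0.5, against 8.08, 8.26 and 8.0 in WT, so the groups did not overlap but came within a small step of each other. Ctss, a lysosomal protease of microglia, differed by -0.60 ± 0.175 (adjusted p = 0.078), and Fcrls by -0.57 ± 0.218 (adjusted p = 0.131). The median of this list was -0.22 in vehicle and +0.09 at 0.35.

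The other cell lists gave 0 genes that passed at 0.5. Of 22 oligodendrocyte and myelin markers 8 were higher and 14 lower (median -0.15), with Aspa, the aspartoacylase of oligodendrocytes, at -0.86 ± 0.266 (adjusted p = 0.0898) and Ermn at -0.69 (adjusted p = 0.163). The 19 markers of Bergmann glia and astrocytes had a median of +0.02, with 10 higher and 9 lower, Gdf10 at +0.62 (adjusted p = 0.266) and Gfap at -0.58 (adjusted p = 0.206). Of 17 endothelial and mural markers 6 were higher and 11 lower (median -0.23), with Rgs5 at -0.60 (adjusted p = 0.109) and Slco1a4 at -0.52 (adjusted p = 0.0983). Of 13 markers of meninges and fibroblasts 3 were higher and 10 lower (median -0.19), with Dcn at -0.54 and Ogn at -0.49. Choroid plexus and ependyma markers (11 tested) had a median of -0.05, with Clic6 at +0.33 and Calml4 at -0.19, and the 3 blood cell markers one of +0.13, with Alas2 at +0.29 and S100a9 at +0.13. Neurons of the brainstem and midbrain, which a dissection of the cerebellum may carry along, had 26 tested markers with a median of -0.01, 10 higher and 16 lower. Tph2, which makes serotonin, differed by -1.16 ± 0.629 (adjusted p = 0.272) and Sncg by -1.0 ± 0.413 (adjusted p = 0.156). The mean level of this list was taken over its 27 markers on the array, tested or not. It ran from 7.12 to 7.68 in the arrays labelled KO at 0.5, against 7.60 to 7.68 in WT. With that mean as a covariate, 57 genes passed at 0.5, so the number of genes depended on this choice.

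**Figure D5:**
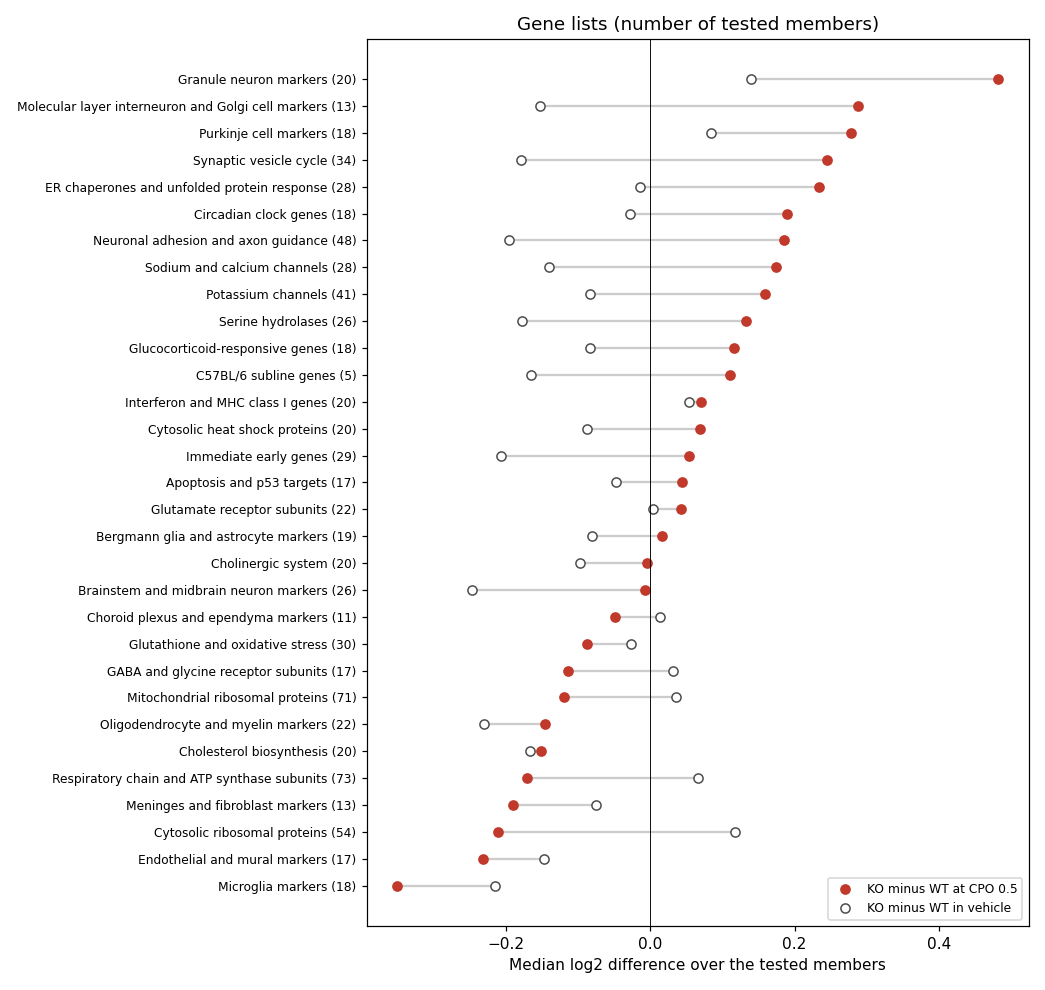
Median difference (log2 units, KO minus WT, x axis) over the tested members of each gene list (y axis, with the number of members), at CPO 0.5 (red) and in vehicle (open). Granule neuron markers stand highest at 0.5 (+0.48) and microglia markers lowest (-0.35), and synaptic vesicle genes have +0.24 at 0.5 and -0.18 in vehicle. The paraoxonases are not drawn.

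Of all genes tested, 53% were higher in the arrays labelled KO at 0.5, which is the share to set the counts of the next lists against. Of 34 genes of the synaptic vesicle cycle 30 were higher and 4 lower, with a median of +0.24, and 1 (Unc13a) passed. Their mean level lay between 10.59 and 10.61 in the arrays labelled KO at 0.5, against 10.18 to 10.42 in WT. In vehicle the median of this list was -0.18, and for 13 of the 34 genes the difference at 0.5 exceeded that in vehicle past the threshold, set against 5.63% of all genes. These 13 included Syn1, Syn2, Syp and Dnm1, the last of which pinches vesicles off the membrane. Of 48 genes of neuronal adhesion and axon guidance 38 were higher and 10 lower at 0.5 (median +0.19), with 1 (Sez6l) that passed. In vehicle that median was -0.20. In the difference between 0.5 and vehicle 19 of the 48 passed, all upward, set against the same 5.63% of all genes. Each count of list members in the difference, here and in the lists below, was 0 without KO vehicle replicate 1, like the 1375 genes themselves.

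Of 28 sodium and calcium channel genes 22 were higher and 6 lower at 0.5 (median +0.17), with 1 (Scn2b) that passed. In the difference from vehicle 7 passed upward, set against 5.63% of all genes. Potassium channels (41 tested) had 31 higher and 10 lower, with a median of +0.16 and 0 that passed. In this list Kcnd2 differed by +0.47 (adjusted p = 0.126) and Kcnc1 by +0.46 (adjusted p = 0.156). Glutamate receptor subunits had 14 higher and 8 lower of 22 (median +0.04), with Grm4 at +0.75 (adjusted p = 0.187) and Grin2c at +0.44 (adjusted p = 0.235). GABA and glycine receptor subunits had 7 higher and 10 lower of 17 (median -0.11), with Gabrd at +0.68 (adjusted p = 0.16) and Glra3 at -0.59 (adjusted p = 0.537). ER chaperones and genes of the unfolded protein response had 23 higher and 5 lower of 28 (median +0.23), with 1 (Calr) that passed. In the difference from vehicle 7 passed upward and 1 downward, set against 5.63% and 3.57% of all genes. Hyou1, a chaperone of the endoplasmic reticulum, had +0.85 in that difference and Dnajb9 had -0.55. Cytosolic heat shock proteins (20 tested) had a median of +0.07, with Hsph1 at +0.28 and Hspa1a at +0.26.

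Ribosomal and respiratory genes were mostly lower in the arrays labelled KO at 0.5. Of 54 cytosolic ribosomal protein genes 53 were lower and 1 higher in the arrays labelled KO at 0.5, with a median of -0.21, and 0 passed. Their mean level was 10.81, 10.78 and 10.78 in the arrays labelled KO at 0.5, against 11.02, 11.03 and 10.95 in WT. Both groups were thus narrow and did not overlap. The WT vehicle arrays alone ran from 10.58 to 11.00 in this mean, and the KO vehicle arrays from 10.81 to 10.95. In vehicle the median was +0.12, and 16 of the 54 passed downward in the difference between 0.5 and vehicle, set against 3.57% of all genes. Rpl36a differed by -0.44 at 0.5 (adjusted p = 0.0793) and by +0.20 in vehicle, and Rps25 by -0.39 at 0.5 (adjusted p = 0.091) and by +0.23 in vehicle. Many ribosomal protein genes have near-identical copies in the genome, so their probe sets may share signal.

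Of 73 subunits of the respiratory chain and ATP synthase 61 were lower and 12 higher at 0.5 (median -0.17), with 1 (Ndufa6) that passed. In the difference from vehicle 18 passed downward, set against 3.57% of all genes. Mitochondrial ribosomal proteins had 53 lower and 18 higher of 71 (median -0.12), with 0 that passed at 0.5. In the difference 6 of the 71 passed, all downward, set against the same 3.57%. At 0.5 Mrpl47 differed by -0.53 (adjusted p = 0.118) and Mrps33 by -0.47 (adjusted p = 0.102). Genes of glutathione and oxidative stress had 22 lower and 8 higher of 30 (median -0.09), with Gstm5 at -0.53 (adjusted p = 0.0794) and Prdx1 at -0.42 (adjusted p = 0.11). Genes of cholesterol synthesis had 14 lower and 6 higher of 20 (median -0.15), with Idi1 at -0.50 and Msmo1 at -0.42, and 0 of either list passed.

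The targets of the oxon were looked at for themselves. Ache, the gene of acetylcholinesterase, measured 8.99, 8.34 and 9.14 in the arrays labelled KO at 0.5, against 8.91, 8.62 and 8.56 in WT. The groups overlapped, and the difference of +0.15 ± 0.253 did not pass (adjusted p = 0.762). Bche, the gene of butyrylcholinesterase, measured 7.38, 6.97 and 7.39 in the arrays labelled KO at 0.5, against 7.71, 8.16 and 7.68 in WT, and its -0.54 ± 0.179 did not pass either (adjusted p = 0.0997). Of 20 tested genes of the cholinergic system 10 were higher and 10 lower at 0.5, with 0 that passed. Chrna6, a subunit of nicotinic acetylcholine receptors, measured 5.88, 6.25 and 7.07 in the arrays labelled KO at 0.5, against 7.24, 8.26 and 7.20 in WT, and its -1.01 ± 0.335 was the largest of the list (adjusted p = 0.1). Slc5a7, which takes up choline for transmitter synthesis, measured 8.02, 6.78 and 7.69 in the arrays labelled KO at 0.5, against 8.15, 8.52 and 8.23 in WT (difference -0.72 ± 0.399, adjusted p = 0.281). Neither gene overlapped between the groups, and both spread widely within the arrays labelled KO. Of 26 serine hydrolases 16 were higher and 10 lower (median +0.13), with 0 that passed at 0.5. In the difference from vehicle 7 passed upward and 1 downward, set against 5.63% and 3.57% of all genes. Dagla, which makes the endocannabinoid 2-arachidonoylglycerol, differed by +0.69 at 0.5 (adjusted p = 0.107) and by -0.43 in vehicle.

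The effect of CPO at 0.5 within each genotype shares its arrays with the comparisons above, and its values are given only beside them. In the arrays labelled KO no gene passed between 0.5 and vehicle by limma (0%), with 1913 at an unadjusted p of 0.05. In WT arrays 155 genes passed (1.04%), 37 higher (0.247%) and 118 lower (0.789%) at 0.5. The vehicle groups held 4 arrays labelled KO and 6 WT arrays, and the former scored from -28.9 to 11.8 on the first axis. Neither count was run in the alternative settings, and the counts were not tested against each other. Pon1 differed between 0.5 and vehicle by -0.17 in the arrays labelled KO and by -0.14 in WT, and Gdpd3 by -0.18 in the arrays labelled KO and by -0.10 in WT. Calr differed by +0.21 in the arrays labelled KO and by -0.63 in WT, where it passed (adjusted p = 0.0336).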

How the data were processed

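RNA was hybridised to Affymetrix arrays of the Mouse Gene 1.0 ST kind. Per the submitters' processing notes, the authors used Affymetrix Expression Console 1.1 with RMA, which subtracts background, aligns the distributions of all arrays and combines probes into probe sets. The deposited values run from 1.15 to 14.80 and were taken as log2, since no base is named. The 35557 probe sets had 1 gene symbol in 21789 cases, several in 1621 and none in 12147, and only the first kind was used. Where a gene had more than 1 probe set (999 genes), the brightest on average was kept. Genes with a mean above the 25th percentile (6.44) were tested, except 3 sex-linked genes.

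All 55 arrays of 12 groups entered 1 limma 3.58.1 fit (R 4.3.3) with group means, the array date (2 dates) as a covariate, and a correlation of 0.131 between arrays that share a description number (36 numbers), with 42 residual degrees of freedom. Tests were moderated with a trend and adjusted by Benjamini and Hochberg's method over 14950 genes. Scripts were tested on simulated data. The number of arrays limits the precision.

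Genes named are the 15 with the largest difference in each direction among those that passed at 0.5, the 10 in each direction for the difference from vehicle, the paraoxonases, Ache and Bche, neighbours of Pon1 that passed, and the members of each list that passed or, where none did, the 2 that differed most, other genes being said to be chosen after their values were seen. For the lists in the difference from vehicle, examples were likewise chosen after their values were seen. The comparison and the lists were chosen with earlier results of these data known. Sequences were read with Python 3.11.15 from RefSeq tables, and 21698 identifiers matched the gene table of GRCm38.p6.

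Same-numbered replicates of the titles were checked for pairing by the correlation of their deviations from the group means. At 0.5 these were 0.0927, -0.315 and -0.283, so the numbers were not taken as pairs, and in vehicle they ran from -0.468 to 0.517. At 0.35 they ran from 0.123 to 0.405, which meets the limit of 0.1 for pairs. Replicates 1 and 4 labelled KO there correlated best with the WT array of their own number, and replicates 2, 3 and 5 with another WT array. No 2 of the 6 arrays were identical, with root mean square differences of 0.164 to 0.390.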

Additional observations from a re-analysis of the deposited data

Results flagged for a closer look

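The difference between the genotypes at 0.5 differed from that in vehicle, by limma's test of the difference of differences, for 1375 genes. The largest upward values among them were +1.46 for Sez6l2, +1.23 for Clstn3, +1.23 for Syn1, +1.19 for Ncdn, +1.18 for Jup, +1.14 for Pnmal2, +1.14 for Slc12a5, +1.13 for Dner, +1.13 for Clip3 and +1.12 for Fasn. The largest downward values were -1.15 for Zfp442, -1.14 for Gm1976, -1.10 for Mir384, -1.06 for Mir99ahg, -1.06 for Zfp874b, -1.02 for Snord61, -1.0 for Gm4787, -1.0 for Mir325, -0.99 for DQ267101 and -0.94 for Etnppl.

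For 36 genes, the 33 that passed at 0.5 and Pon3, Ache and Bche, the vehicle groups (72 in all) were examined for an array far from the others of its group, and 7 held one. By chance about 5% of groups hold one. Pglyrp1 stood at 8.92 in KO vehicle replicate 2, with the nearest other array at 8.53. Sgpp2 stood at 9.67 (nearest 9.90) and Ap2b1 at 10.31 (nearest 10.66) in KO vehicle replicate 4, the array of high Xist. In WT vehicle, Unc13a stood at 9.18 (nearest 9.58) and Olfml1 at 9.52 (nearest 8.96) in replicate 4, Smg9 at 8.17 (nearest 7.90) in replicate 1, and Gdpd3 at 8.91 (nearest 8.55) in replicate 5. The groups of 3 arrays at 0.5 are too small to be examined in this way.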

How the results depend on the processing

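The counts of genes that passed are given for KO against WT at 0.5, in vehicle and at 0.35 and for the difference between 0.5 and vehicle, where they were 33, 22, 34 and 1375. The count at 0.5 ran from 2 to 2117 over the alternatives, so it depended on the settings, while Pon1 and Gdpd3 passed in every alternative run for them (24 and 23). Without the correlation of arrays that share a number, 337 genes passed at 0.5 and 41 in vehicle. With KO and WT arrays alone in the fit the counts were 6, 6, 10 and 0 (3470 at an unadjusted p of 0.05 for the last, by limma). With no level filter 377 passed in the difference, and with a filter at the median level 14 passed in vehicle. Array quality weights gave 2117 at 0.5, 37 in vehicle and 63 at 0.35. With arrays of the first date alone the counts were 2, 5, 4 and 0, and with the second 2, 5, 261 and 0. A sex score as a covariate gave 13 at 0.35, and the brainstem and midbrain marker mean gave 57 at 0.5 and 22 at 0.35. Averaging arrays with the same number gave 12, 35, 18 and 2904. The 6 arrays alone gave 3. Without KO 0.35 replicate 5, 203 genes passed at 0.5, 36 in vehicle and 2075 in the difference. Leaving out single replicates gave 9 to 24 at 0.5, 9 to 52 in vehicle, 14 to 490 at 0.35 and 0 to 2979 in the difference. Centring each array on its median moved the share of higher genes to 68% in vehicle (from 54.5%), 38.5% at 0.35 (from 52.9%) and 40% in the difference (from 61.2%). Leaving out the date or averaging a gene's probe sets kept all 4 counts within 1.5 times.

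With the replicate number of the titles as a block, 62 genes passed at 0.5, 22 in vehicle, 88 at 0.35 and 1873 in the difference, and the 33 genes at 0.5 were all among the 62. The titles' numbers did not pair the arrays at 0.5.

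Of the alternatives added after seeing the data, the first principal axis as a covariate gave 17 at 0.5, 66 at 0.35 and 0 in the difference (620 at an unadjusted p of 0.05), and leaving out the 3 arrays of high Xist gave 10 at 0.35 and 0 in the difference (4458 at an unadjusted p of 0.05). The 0.35 arrays in place of vehicle gave 18. Ache turned to -0.24 on the first date and to -0.33 with the first axis, and ran from -0.026 (without KO 0.5 replicate 3) to +0.38 over single replicates left out. In the difference with the first axis, Ncdn turned to -0.087, Fasn to -0.033 and Mir99ahg to +0.018. The cause of these changes was not tested. With 3 arrays a group, the smallest difference that passed at 0.5 was 0.36 log2 units.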

Other observations

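Circadian clock genes (18 tested) had a median of +0.19 between the arrays labelled KO and WT at 0.5, with 14 higher, 4 lower and 0 that passed. Nr1d1, a repressor of the clock, differed by +0.70 ± 0.256 (adjusted p = 0.121) at 0.5 and by -0.41 in vehicle, and Bhlhe40 by +0.56 ± 0.161 (adjusted p = 0.077) at 0.5 and by -0.12 in vehicle. The time of day of sampling is not in the labels used here. Glucocorticoid-responsive genes (18 tested) had a median of +0.12, with Pdk4, a kinase that restrains the use of glucose, at +0.55 at 0.5, +0.48 in vehicle and +0.59 at 0.35, none of which passed, and Zbtb16 at +0.50 at 0.5. Immediate early genes (29 tested) had a median of +0.05, with Dusp5 at +0.43 and Dusp1 at -0.38. Apoptosis and p53 targets (17 tested) had a median of +0.04, with Casp8 at -0.32 and Casp9 at +0.23. Interferon and MHC class I genes (20 tested) had a median of +0.07, with Ifit2 at -0.52 and Usp18 at +0.31. These lists had 0 genes that passed at 0.5 by limma. Genes that differ between C57BL/6 sublines (5 tested) had a median of +0.11 at 0.5 and -0.17 in vehicle, with Cyfip2 at +0.35 and Entpd4 at +0.14, and 0 that passed at 0.5.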
